A study of Arabidopsis thaliana with 6 samples.

Results

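Transcript levels of 10 genes that modify and activate indole glucosinolates were followed in seedlings of Arabidopsis thaliana, wild type (Col-0) against the mutant naa20-1. The genes are the cytochrome P450 genes CYP81F1 to CYP81F4, the methyltransferase genes IGMT1 to IGMT5 and the myrosinase gene PEN2. They were taken by locus code as named families out of 27241 genes with a match in the reference gene table. The families were chosen by their values in these same samples: CYP81F2 and IGMT2 were already known to be far lower in naa20-1. The difference between the genotypes is therefore given for the 10 genes as a description, and no test is read from it.

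Indole glucosinolates are sulfur-containing defence compounds that Brassicaceae make from tryptophan. The CYP81F enzymes put a hydroxyl group on the indole ring of the parent compound, and the IGMT enzymes then methylate that group. In leaves, CYP81F2 and the 4-methoxy product act with the atypical myrosinase PEN2, which cleaves the compound when a microbe attacks, and with the transporter PEN3. CYP81F4 and IGMT5 act on the other branch, the 1-methoxy product, which is best known from roots.

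Total RNA was measured on 6 arrays, 3 of Col-0 and 3 of naa20-1, with 1 array per sample. By the series' design text, naa20-1 plants lack much of the catalytic part of NatB, an enzyme that puts acetyl groups on protein N-termini. The labels name no other allele or agent. Both genotypes were harvested untreated at 17 days, after growth on 1x MS medium with 8.5 h of light a day at 100 µE. The sources used here do not say how the allele was made, how many plants a sample held or whether samples came from separate cultures. Errors and p-values thus cover the spread among these 6 samples and may be technical. Levels are RMA log2 values, given as mean ± SD (n = 3) where averaged, errors of differences are SEs, and differences were taken as naa20-1 minus Col-0. A value under 3.72, the 25th percentile of the table, is called dim here, since the table has no detection calls and such a signal may be background.

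The median over all values of the 6 arrays was 6.12, and the number of arrays limits the precision. NAA20 (AT1G03150), the gene of the depleted subunit, was at 8.79, 8.75 and 8.72 in Col-0 and at 8.10, 7.60 and 7.36 in naa20-1, lower on every naa20-1 array. Over all genes, limma with Benjamini-Hochberg adjustment called 209 genes lower and 104 higher in naa20-1, where a call means an adjusted p under 0.05. Markers of green shoot tissue and of root tissue were both present, as the label seedlings implies. Of 20 root markers 15 had a negative difference (median -0.25), their summed linear signal was 6100 to 6630 on the Col-0 arrays and 4770 to 5100 on the naa20-1 arrays, and only 1 was dim on all arrays. None passed the test in limma. In 9 of the 20 every naa20-1 value lay under every Col-0 value, beside 10.5% of all genes. The list was mixed, and its genes are grouped here after their values were seen. CASP1 to CASP5 and ESB1 had differences from -0.98 to -0.40. TIP2;3 (-0.69), XTH14 (-0.48), PRP3 (-0.45), EXPA18 (-0.27) and RHD2 (-0.22) were also negative. The rest were SCR (0.08), SHR (0.00), PLT1 (-0.05), WOX5 (0.23), SHV2 (0.04), EXPA7 (-0.07), PRP1 (-0.07), NRT2:1 (0.10) and MYB36 (0.13, dim on all arrays). Of 10 green shoot markers 7 were negative (median -0.04), with summed signals of 51400 to 53300 and 50700 to 51700, and none was dim on all arrays. RBCS1A, one of the brightest of them, read 14.18 on all 6 arrays, near the top of the range of the table, so this sum may not show a change in green tissue. The part of root tissue in the results below was not tested, and in whole seedlings fewer cells of a type and less RNA per cell cannot be told apart.

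Of the 10 genes, 8 were lower in naa20-1 by their means and 2 were higher, with a median difference of -0.44 against 0.01 over all genes. The differences ran from -3.01 for IGMT2 to 0.14 for CYP81F1. In limma's fit over all genes 2 members were called lower, IGMT2 and CYP81F2, and 0 were called higher, beside 0.767% of all genes called lower and 0.382% called higher. Because these 2 genes prompted the choice of the set, that count carries no weight. In 4 members, CYP81F2, IGMT1, IGMT2 and PEN2, all 3 naa20-1 values lay under all 3 Col-0 values, as they did in 10.5% of all genes. In 0 members did all naa20-1 values lie above those of Col-0, as they did in 10.6% of all genes.

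**Figure D1:**
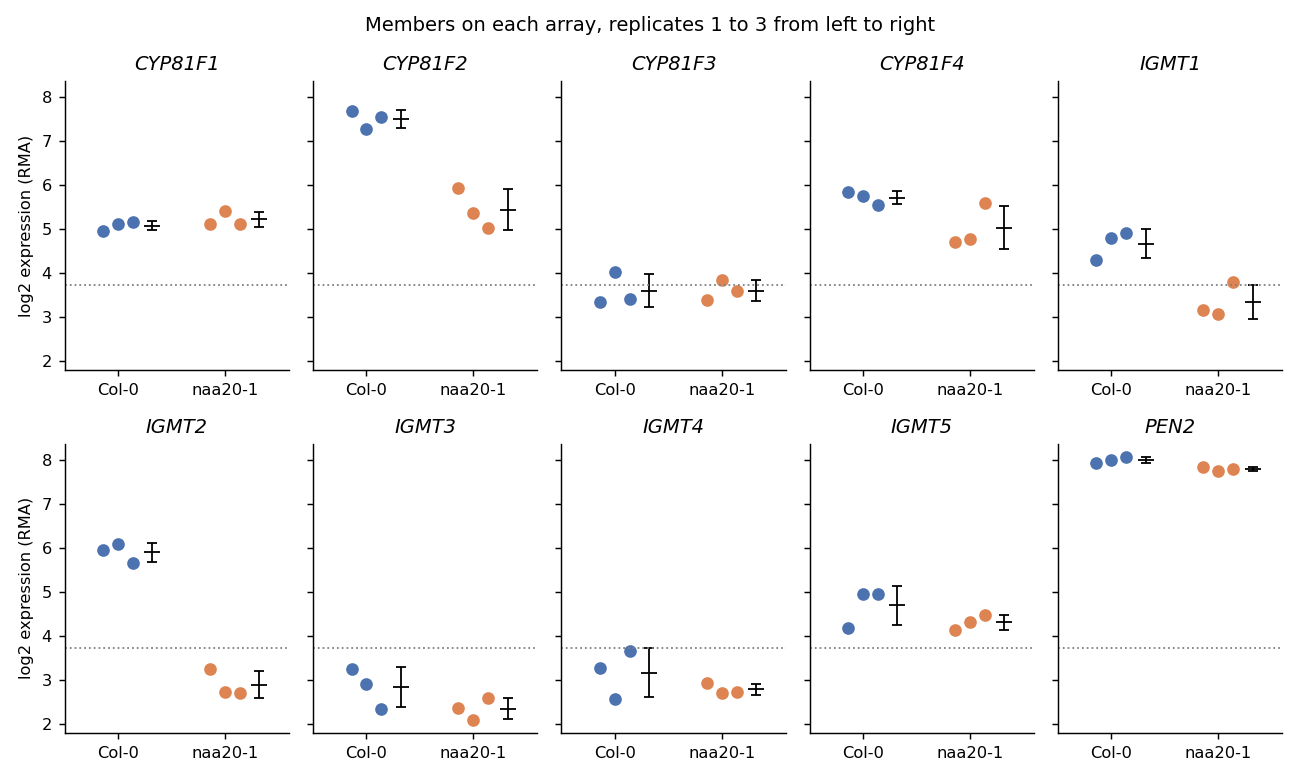
Log2 expression of the 10 genes on each array (points, replicates 1 to 3 from left to right within a genotype, Col-0 blue, naa20-1 orange), with the mean ± SD of 3 arrays in black. The dotted line is the 25th percentile of the table, 3.72. The groups are separate for CYP81F2 and IGMT2 by a wide gap and for IGMT1 and PEN2 by a narrower one, and they overlap for the other 6 genes.

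The CYP81F genes differed from one another in how they stood in the mutant. CYP81F2 (AT5G57220), whose enzyme hydroxylates the indole ring at position 4 and is needed for defence through PEN2, was at 7.70, 7.29 and 7.55 on the Col-0 arrays and at 5.94, 5.37 and 5.02 on the naa20-1 arrays. Every naa20-1 value was more than 1 log2 unit under the lowest Col-0 value. The means were 7.51 ± 0.21 and 5.45 ± 0.46, a difference of -2.07 (SE 0.23), or 4.19-fold lower. It was the 9th lowest difference among the 27241 genes.

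CYP81F1 and CYP81F3, whose enzymes also act at position 4, did not share this pattern. CYP81F1 (AT4G37430, listed in the reference as CYP91A2 with CYP81F1 as a synonym) was at 4.97, 5.11 and 5.16 in Col-0 and 5.13, 5.42 and 5.12 in naa20-1. The groups overlapped, with a difference of 0.14 (SE 0.11). CYP81F3 (AT4G37400) was at 3.34, 4.03 and 3.42 in Col-0 and 3.38, 3.84 and 3.59 in naa20-1, a difference of 0.01 (SE 0.20). Its signal was dim on 4 of 6 arrays, so a change in it might not be seen.

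CYP81F4 (AT4G37410), the hydroxylase of position 1, split the mutant samples. It was at 5.84, 5.76 and 5.55 in Col-0 and at 4.72, 4.78 and 5.60 in naa20-1. Replicates 1 and 2 of naa20-1 were about 1 unit under Col-0, while replicate 3 lay inside the Col-0 range. The difference was -0.69 (SE 0.23), or 1.61-fold lower, and the groups overlapped. Without naa20-1 replicate 3 it was -0.97, and CYP81F4 was then among the genes called.

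The 4 methyltransferase genes IGMT1 to IGMT4 lie next to each other on chromosome 1 in the order IGMT1, IGMT3, IGMT2, IGMT4. They are near-identical copies, so a probe set named for one may read transcripts of another, and their values are uncertain as to the copy measured. IGMT1 and IGMT2 are known to methylate the 4-hydroxy compound that CYP81F2 makes. IGMT2 (AT1G21120) was at 5.96, 6.08 and 5.66 in Col-0 and at 3.24, 2.72 and 2.70 in naa20-1. The gap between the lowest Col-0 and the highest naa20-1 array was wider than 2 units. The means were 5.90 ± 0.22 and 2.88 ± 0.31, a difference of -3.01 (SE 0.18), or 8.07-fold lower. This was the 2nd lowest difference of all genes. All 3 naa20-1 values were dim, so the size of the difference is uncertain.

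IGMT1 (AT1G21100) was at 4.29, 4.80 and 4.92 in Col-0 and at 3.15, 3.08 and 3.80 in naa20-1. The groups did not overlap, although naa20-1 replicate 3 came within 0.5 units of the lowest Col-0 array. The difference was -1.32 (SE 0.23), or 2.50-fold lower, the 49th lowest of all genes. Its adjusted p in limma's fit was just over the threshold, so it is not in the count of called members. IGMT1 was called with each array centred on its median (limma adjusted p = 0.0496) and with a variance trend and robust fit (limma adjusted p = 0.0110). It was not called with quantile normalization repeated (limma adjusted p = 0.0501) or with all table rows kept (limma adjusted p = 0.0532). Of 6 fits with single arrays left out, only 1 called it, the fit without naa20-1 replicate 3, where the difference was -1.55. In the others the limma adjusted p was 0.0674 to 0.165. These calls only describe how near the threshold IGMT1 lay. The set was chosen by the same values, so no test of IGMT1 is read from them.

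IGMT3 and IGMT4, whose products are assigned to the same family by sequence, were dim on all 6 arrays. IGMT3 (AT1G21110) was at 3.25, 2.91 and 2.34 in Col-0 and 2.36, 2.09 and 2.58 in naa20-1, a difference of -0.49 (SE 0.23). IGMT4 (AT1G21130) was at 3.26, 2.56 and 3.66 in Col-0 and 2.92, 2.69 and 2.73 in naa20-1, a difference of -0.38 (SE 0.25). In both genes the groups overlapped. At this signal a change of either gene might not be seen.

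IGMT5 (AT1G76790), at another place on chromosome 1, is known to methylate the 1-hydroxy compound that CYP81F4 makes. It was at 4.19, 4.95 and 4.96 in Col-0 and at 4.14, 4.32 and 4.48 in naa20-1. Col-0 replicate 1 lay among the naa20-1 values, so the groups overlapped. The difference was -0.39 (SE 0.21), and without Col-0 replicate 1 it was -0.64.

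PEN2 (AT2G44490) varied least of the 10 genes between replicates of a genotype. It was at 7.93, 8.01 and 8.07 in Col-0 and at 7.84, 7.75 and 7.79 in naa20-1. The groups did not overlap, but they were only 0.09 units apart at their closest. The difference was -0.21 (SE 0.08), or 1.16-fold lower, and it was not among the genes called (limma adjusted p = 0.316).

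**Figure D2:**
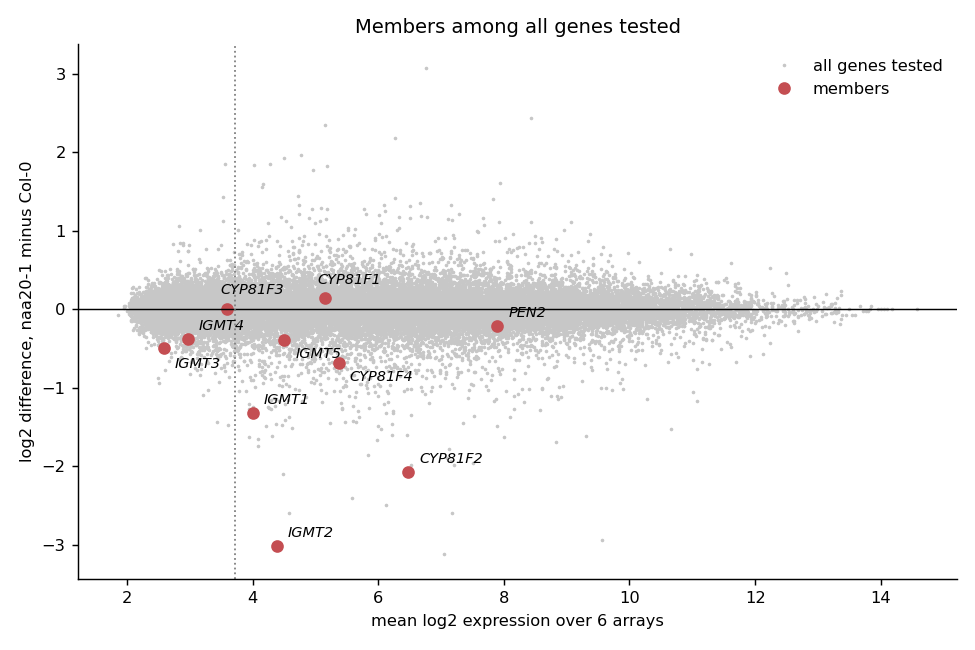
Mean log2 expression over 6 arrays (horizontal) against the log2 difference between naa20-1 and Col-0 (vertical) for the 27241 genes tested (grey) and the 10 members (red, named). The dotted line marks 3.72, the 25th percentile of the table. IGMT2 and CYP81F2 lie at the lower edge of the whole cloud at -3.01 and -2.07, and PEN2 lies within it at -0.21.

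The members varied more between replicates than most genes. The SD within groups, pooled over both, had a median of 0.14 over all genes and a 95th percentile of 0.35. CYP81F2 and CYP81F4 (both 0.36), IGMT1 and IGMT3 (both 0.37) and IGMT4 (0.40) were above that percentile. PEN2, at 0.06, was under the median.

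The mutant replicates did not rank alike from gene to gene. For CYP81F2 the highest naa20-1 value was in replicate 1 and the lowest in replicate 3, and NAA20 itself stood in that order too (8.10, 7.60 and 7.36). For IGMT2 the highest was also in replicate 1, but replicates 2 and 3 were dim and nearly equal (2.72 and 2.70). For CYP81F4, IGMT1, IGMT3 and IGMT5 the highest naa20-1 value was in replicate 3. The mean of the root markers was 6.61, 6.55 and 6.57 on the same 3 arrays, so it did not set replicate 3 apart. With 3 arrays no relation between these orders can be tested.

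Leaving out each array in turn shows how far a difference rests on 1 sample. It gives no support for the differences themselves, since the same values chose the set. The difference of IGMT2 ranged from -3.19 to -2.92 and that of CYP81F2 from -2.32 to -1.86, and CYP81F2 was not called without Col-0 replicate 1 or Col-0 replicate 3. IGMT1 ranged from -1.55 to -1.19 and CYP81F4 from -0.97 to -0.53, with the lowest value of both without naa20-1 replicate 3. CYP81F3 was the only member whose difference changed sign, with a range from -0.12 to 0.23.

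**Figure D3:**
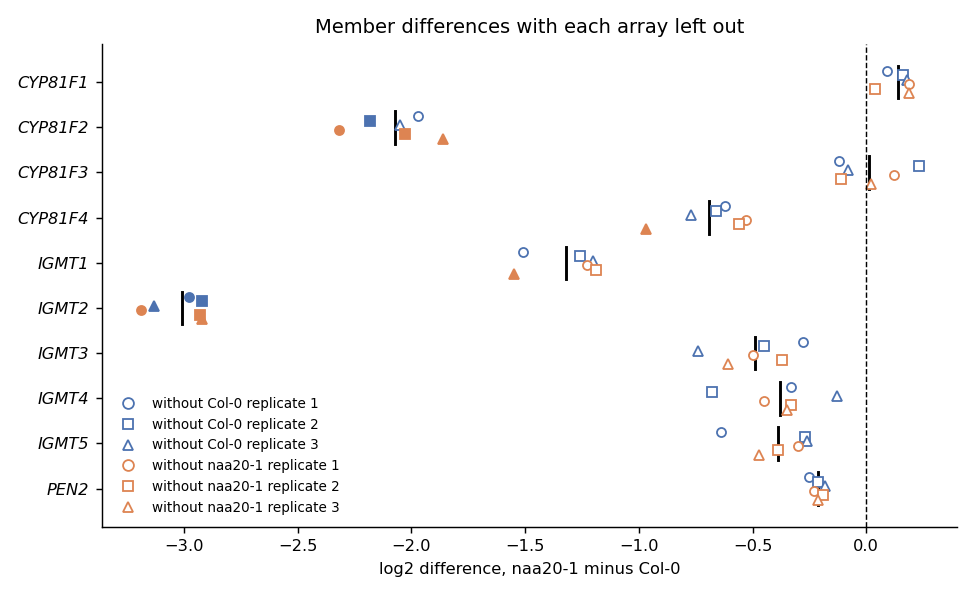
Log2 difference between naa20-1 and Col-0 of each member over all arrays (black bar) and with 1 array left out (symbols, filled where that fit called the gene). The symbols of IGMT2 lie between -3.19 and -2.92, and the symbol without naa20-1 replicate 3 is the lowest for CYP81F4 (-0.97) and IGMT1 (-1.55).

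Among the genes that supply the substrate of the CYP81F enzymes, none was called in the fit over all genes. Small shifts could be missed, as on simulated data the fit recovered 18% of genes shifted by 0.5 log2 units. None of 9 genes of indole glucosinolate core synthesis, from the tryptophan-converting P450s to the final sulfotransferase, was called by limma. In 2 of them, CYP79B2 and CYP83B1, every naa20-1 value lay under every Col-0 value, beside 10.5% of all genes. The median difference was -0.11, and 8 of 9 were negative beside 48.8% of all genes. The 8 include SOT16, whose difference rounds to 0.00. CYP79B2, which turns tryptophan into its oxime, measured 8.23 ± 0.04 in Col-0 against 7.80 ± 0.16 in naa20-1 (difference -0.42, SE 0.10, limma adjusted p = 0.124). Of all fits tried, only that with a variance trend and robust fit called CYP79B2 (limma adjusted p = 0.0399). CYP83B1, the next enzyme, was at 10.43 ± 0.08 and 10.12 ± 0.17 (difference -0.31, SE 0.11, limma adjusted p = 0.264). Of 8 genes of tryptophan supply, limma called none, with 4 negative differences and a median of 0.00. In 1 of the 8, ASA1, every naa20-1 value lay under every Col-0 value. ASA1, an anthranilate synthase subunit, had a difference of -0.30 (SE 0.10) and ASB1, which was dim on all arrays, one of -0.49 (SE 0.21).

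Among 11 regulators of the indole branch 1 fell, 10 were not called and 9 differences were negative (median -0.38). WRKY33, a transcription factor of defence against necrotrophic fungi that also acts on indole metabolism, was at 11.58, 11.42 and 11.32 in Col-0 and at 10.70, 10.48 and 10.89 in naa20-1. The groups did not overlap, and WRKY33 fell 1.69-fold (difference -0.75, SE 0.13, limma adjusted p = 0.0445). The call held only without naa20-1 replicate 3 when single arrays were left out, and the adjusted p otherwise reached 0.139. MPK3, a kinase that with MPK6 switches on the 4-methoxy branch, was at 10.28 ± 0.09 and 9.77 ± 0.07 (difference -0.52, SE 0.09) and was just not called by limma. MPK6 itself was at 10.58 ± 0.03 and 10.64 ± 0.16 (difference 0.06, SE 0.10), with groups that overlapped.

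The remaining regulators with groups that did not overlap are named here after their values were seen. MYB34 had a difference of -0.43 (SE 0.09, limma adjusted p = 0.0863) and MYB51, its relative in shoots, one of -0.41 (SE 0.10, limma adjusted p = 0.113). MYC2, a jasmonate-response factor that works with these MYB proteins, had a difference of -0.72 (SE 0.16, limma adjusted p = 0.0946). None of them passed the test. In all, 5 of 11 regulators had every naa20-1 value under every Col-0 value, beside 10.5% of all genes. In the other regulators the groups overlapped, with differences from -0.38 for ERF6 to 0.21 for OBP2.

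Genes that act after the methylated compound was made included 2 that fell. PEN3 (ABCG36), the plasma membrane transporter that works with PEN2, was at 10.41, 10.42 and 10.40 in Col-0 and at 9.59, 9.44 and 9.15 in naa20-1. The Col-0 arrays were nearly equal and the naa20-1 arrays all lower, a 2.03-fold fall (difference -1.02, SE 0.12, limma adjusted p = 0.0138). PCS1, the phytochelatin synthase that acts in the PEN2 pathway, was at 10.10 ± 0.04 and 9.57 ± 0.04, a 1.44-fold fall (difference -0.52, SE 0.08, limma adjusted p = 0.0326). The other 4 of 6 genes in this list, 3 glucosinolate transporters of the NPF family and GSTU13, were not called, and the list's median was -0.19. With single arrays left out, PEN3 was called 2 times of 6 (adjusted p up to 0.0686, over the threshold without naa20-1 replicate 2 or any 1 Col-0 array) and PCS1 0 times of 6 (adjusted p = 0.0745 to 0.128).

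Relatives of PEN2 went in both directions. Of 17 β-glucosidase and myrosinase genes 1 fell, 2 rose and 14 were not called, with a median of 0.15 and 13 positive differences. The signal of 5 of the 17 was dim on all arrays, and without the dimmest 40% of all genes the median was 0.05. TGG2, one of the classical leaf myrosinases, fell from 11.65 ± 0.04 to 10.49 ± 0.18 (2.24-fold, difference -1.16, SE 0.11, limma adjusted p = 0.00617) and was called with each single array left out. TGG1, the companion myrosinase, was at 13.14 ± 0.02 and 13.08 ± 0.02 (difference -0.06, SE 0.08) and was not called. BGLU28, known to rise in sulfur shortage, rose 3.44-fold from 4.07 ± 0.27 to 5.85 ± 0.49 (difference 1.78, SE 0.25, limma adjusted p = 0.0238). BGLU25 rose 1.69-fold from 6.95 ± 0.05 to 7.70 ± 0.16 (difference 0.75, SE 0.10, limma adjusted p = 0.0235). With single arrays left out, BGLU28 was called 2 times of 6, without naa20-1 replicate 2 or 3, and BGLU25 once, without naa20-1 replicate 2. The adjusted p of both otherwise reached 0.0960.

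Outside the F subfamily, 1 of 13 CYP81 genes fell and 12 were not called, with a median of 0.06. The signal of 4 of the 13 was dim on all arrays, so a change in these might not be seen. CYP81D7 fell from 4.04 ± 0.11 to 3.33 ± 0.10 (difference -0.71, SE 0.10, limma adjusted p = 0.0231). Its naa20-1 values were dim, and among the single arrays left out its call held only without naa20-1 replicate 3. CYP81D1 had a difference of -0.56 (SE 0.17) and was not called (limma adjusted p = 0.206).

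**Figure D4:**
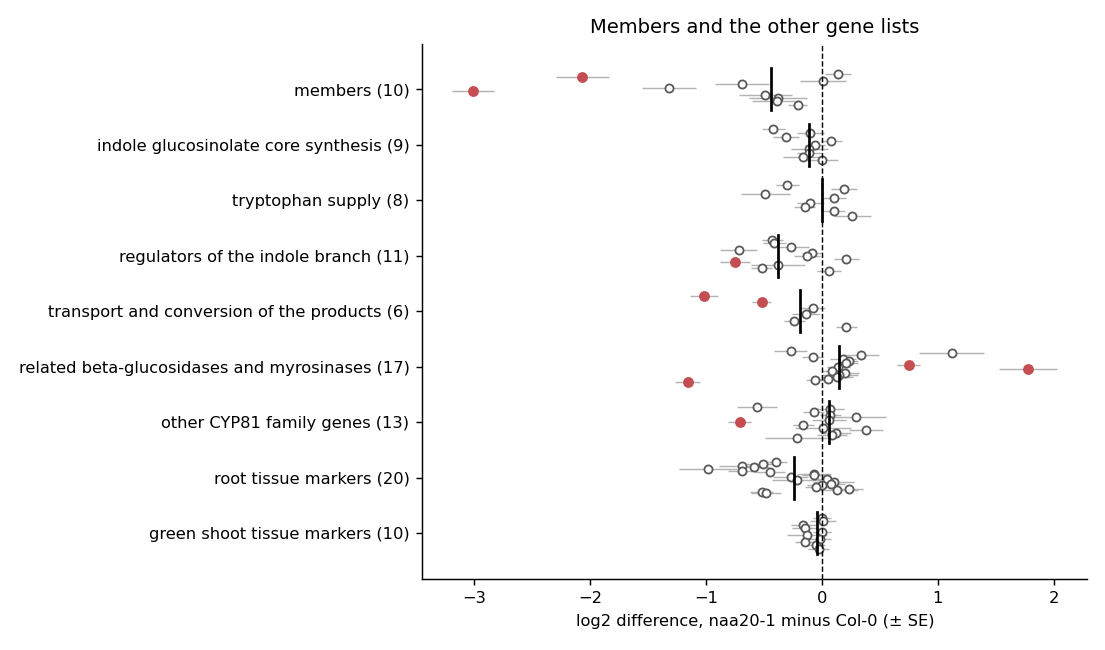
Log2 difference between naa20-1 and Col-0 (± SE) of every gene of the member set, the 6 other lists and the 2 marker lists, with the number of genes in brackets. Red points were called, and black bars are list medians, from -0.44 for the members to 0.15 for the β-glucosidases and myrosinases.

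Neighbouring genes were compared to see whether the low members lay in stretches that were low throughout. The 33 genes taken were up to 3 on each side of each member or tandem group, plus those inside a group. Of these, limma called 1 higher and 0 lower, and the median was -0.01. All naa20-1 values lay under all Col-0 values in 2 of the 33, beside 10.5% of all genes. They lay above them in 5, beside 10.6% of all genes. The called gene was BGLU28, which lies 3 genes from PEN2. The 6 neighbours of the IGMT1 to IGMT4 group had differences from -0.33 to 0.28, and the 6 neighbours of CYP81F2 from -0.21 to 0.41. CYP81F1, CYP81F3 and CYP81F4 share a stretch of chromosome 4, where the 9 other genes taken ran from -0.88 to 0.13. The lowest of these was BRU6, a GH3-type auxin-conjugating enzyme gene, at -0.88 (SE 0.30), and its groups overlapped. Neither IGMT2 nor CYP81F2 had a neighbour outside its own family with a difference near its own.

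**Figure D5:**
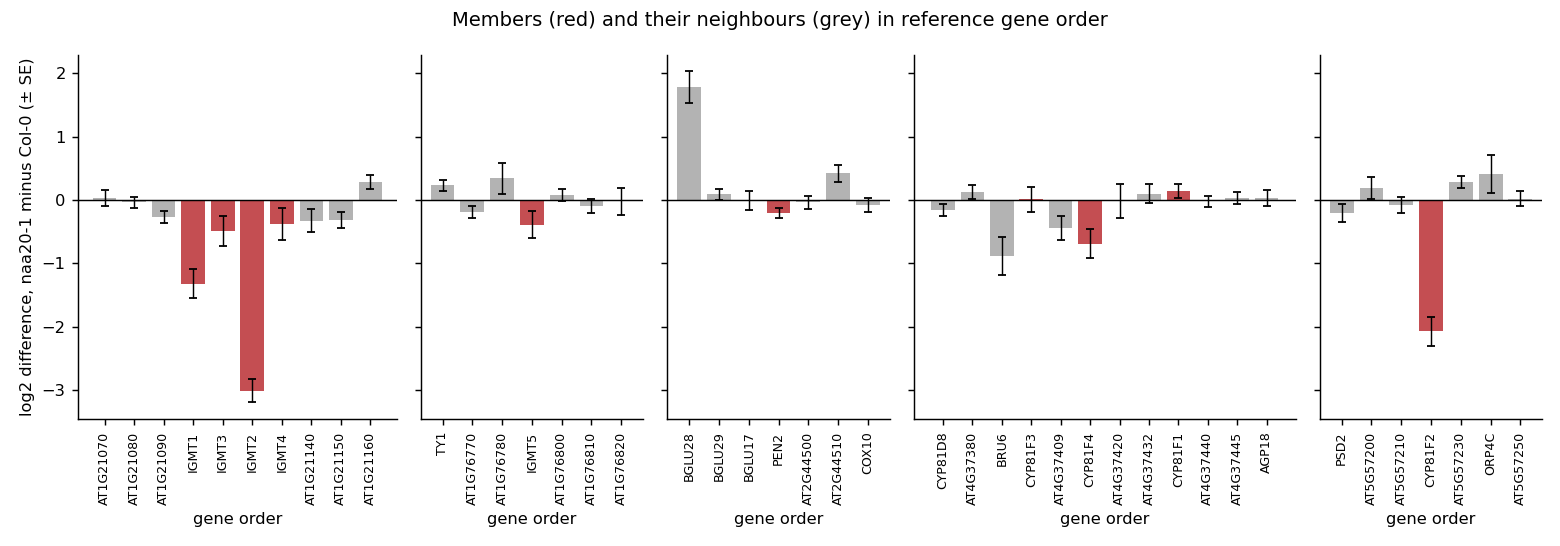
Log2 difference between naa20-1 and Col-0 (bars, ± SE) of the members (red) and their neighbours (grey) in the order of the reference gene table, 1 panel per stretch. The bars of IGMT2 (-3.01), IGMT1 (-1.32) and CYP81F2 (-2.07) stand far below their neighbours, and BGLU28 (1.78) stands above PEN2 (-0.21).

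The genes whose profile over the 6 arrays was most like that of CYP81F2 or IGMT2 were sought among the 548 genes outside the set with an SD of at least 0.5 over the arrays. The measure was Pearson's r, and since both profiles are split by genotype it mostly ranks genes by that split and is given as a description. For CYP81F2 the 5 closest were MRU1 (r = 0.993), the glutathione transferase gene GSTF7 (r = 0.993), AT1G58320 (r = 0.992), PEN3 (r = 0.990) and AT2G01610 (r = 0.990). PEN3 came from the same pathway. For IGMT2 they were the germin-like gene AT5G38910 (r = 0.999), the NAC transcription factor gene NAC042 (r = 0.997), AT1G36640 (r = 0.995), AT2G05510 (r = 0.995) and the trichome patterning gene TRY (r = 0.994). The differences of these 10 genes ran from -3.12 for AT5G38910 to -0.89 for AT2G01610. GSTF7 has a near-identical copy, so its signal may include that copy.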

How the data were processed

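The deposited table holds log2 expression values that the authors made with RMA, per the submitters' processing notes, with 27827 probe sets and 1 per locus. RMA corrects background, equalises array distributions and summarises the probes of a set. The sources used here name neither the array type nor the probe set definition. Dim signals and near-identical genes are its weak points, and no depth in reads applies. The 27241 loci found in the reference gene table (TAIR10.1, names and gene order only) entered 1 limma model (limma 3.58.1 under R 4.3.3, functions lmFit and eBayes), with genotype as the only term, two-sided, with Benjamini-Hochberg adjustment over all of them. Errors of differences are moderated standard errors.

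The members and lists were chosen with earlier results of these data known. All members were named. In each other list up to 4 called genes with the smallest p were named, or the 2 with the smallest p where fewer than 2 were called, with the stated exceptions. Neighbours were named where called, and BRU6 after its value was seen. On simulated data for the 27241 genes the fit recovered 18% of genes shifted by 0.5 log2 units, 76% of those shifted by 1 and 96% of those shifted by 1.5 or by 2. The shifted genes were drawn at random from all genes. Most members varied more between replicates than the median gene, so the rates may be lower for them. Same-numbered samples of the 2 genotypes had deviations correlated at 0.024, 0.062 and 0.013, so the numbers were not taken as pairs. Replicate numbers are those of the sample titles; the sample descriptions number the naa20-1 samples 1, 3 and 4, so which samples share a number is itself in doubt. Protein identity and promoter motifs were not analysed here.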

Additional observations from a re-analysis of the deposited data

How the results depend on the processing

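Repeated quantile normalization, median centring, removal of the dimmest 40% of genes, a variance trend with robust fit, all table rows kept, a replicate block and leaving out each sample were tried. No value named in the report changed sign among called genes. The whole table gave 486 lower and 311 higher calls with the variance trend and robust fit, and 129 and 61 with the replicate block. It gave 51 to 134 lower and 11 to 63 higher with single samples left out. Members called lower numbered 1 to 4 with samples left out and 1 without the dimmest genes, where only CYP81F2, CYP81F4 and PEN2 were bright enough to be tested. With the replicate block, median centring or the variance trend 3 members were called lower, the third being IGMT1 (limma adjusted p = 0.0379 with the block). Without the dimmest genes 3 regulators were called lower, 1 β-glucosidase higher, and 0 other CYP81 genes and 0 neighbours in either direction, and the medians were 0.10 for tryptophan supply, -0.24 for transport and conversion and 0.05 for β-glucosidases. The variance trend called 3 regulators and 1 core synthesis gene lower. With the replicate block 0 regulators, 1 transport and conversion gene and 0 other CYP81 genes were called lower, as WRKY33, PCS1 (limma adjusted p = 0.0990) and CYP81D7 (limma adjusted p = 0.0816) were not called. With samples left out, regulators, transport genes and other CYP81 genes had 0 to 1 lower calls, β-glucosidases 0 to 2 higher and neighbours 0 to 1 higher. The ranges of list medians were -0.20 to -0.05 for core synthesis, -0.09 to 0.08 for tryptophan supply, -0.43 to -0.28 for regulators, -0.24 to -0.14 for transport, 0.10 to 0.19 for β-glucosidases, -0.05 to 0.11 for other CYP81 genes and -0.03 to 0.04 for neighbours. The cause of these shifts was not tested, beyond fewer genes or samples in the fit.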
